A study of Mus musculus with 24 samples.

Results

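The 2 arrays labelled control, titled AT and AT2, carry RNA of alveolar epithelial type II cells from the lungs of healthy, non-transgenic mice. They are 2 of 24 arrays in the series. The other 22 carry RNA of 11 lung tumour cell lines, grown in serum-containing medium, from mice that express both c-Myc and c-Raf transgenes. The labels name no promoter for the transgenes. RNA was hybridised to Affymetrix mouse arrays, which give 1 signal for each probe set, a group of short probes for 1 transcript. The control cells were taken straight from the lung, by perfusion, lavage, enzyme digestion and a density gradient, while the lines had been passaged in culture. The labels give no age, sex or strain for the healthy animals. They do not say whether the 2 control preparations came from separate animals, from pools or from 1 preparation, nor whether the 2 in AT2 is a replicate number or part of the cell name.

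Alveolar type II cells make surfactant, a film of phospholipid and the proteins SP-A to SP-D that keeps the air spaces open, and they are the stem cells from which flat type I cells are renewed. They sit beside alveolar macrophages, capillary endothelium, fibroblasts and lymphocytes, and the small airways that lead to them are lined by club and ciliated cells. Digestion of a lung therefore frees many cell types. Epithelial cells that are injured or placed in culture lose surfactant gene expression and gain keratins, matrix and wound genes, and macrophages that meet an inflammatory stimulus release cytokines and chemokines.

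The comparison asks how alike the 2 control preparations were in cell content and in state. A gene counted as far apart when its log2(signal + 32) differed by at least 2, which is 4-fold, and its signal was over 200 on at least 1 of the 2 arrays. All differences below are log2(signal + 32) on control AT2 minus control AT, and a gene stands for its brightest probe set on the 2 arrays. The offset of 32 makes folds of dim genes smaller than their signal ratios. With 1 array against 1 there is no replicate check, so no test was made and every difference below is a description of these 2 arrays. Signals of different probe sets are not on a common scale, so differences are read gene by gene. A summed signal of a list is given only to set the same probe sets side by side on different arrays, and it is weighted to the brightest of them.

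Of 8251 genes measured, 131 (1.59%) were higher on control AT2 and 50 (0.606%) were higher on control AT, 181 (2.19%) in all. The widest gaps towards control AT2 included class II antigen presentation, immunoglobulin, surfactant and airway genes. Those towards control AT included Saa3, Arg1, Marco, Ccl2 and Mmp3, and the lists with most members past the rule there were acute inflammation (8), injury and transitional epithelium (6) and fibroblast and matrix (6). Over all measured genes the median difference was 0.04, and 4507 of them (54.6%) were higher on control AT2 by any amount. Centring each array on its median log2 signal moved that median to -0.11. Without the 4-fold limit, 575 genes (6.97%) were at least 2-fold higher on control AT2 and 414 (5.02%) on control AT, whatever their signal. Since so few genes pass the rule, a count of 0 or 1 in a short list says little about that list.

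**Figure D1:**
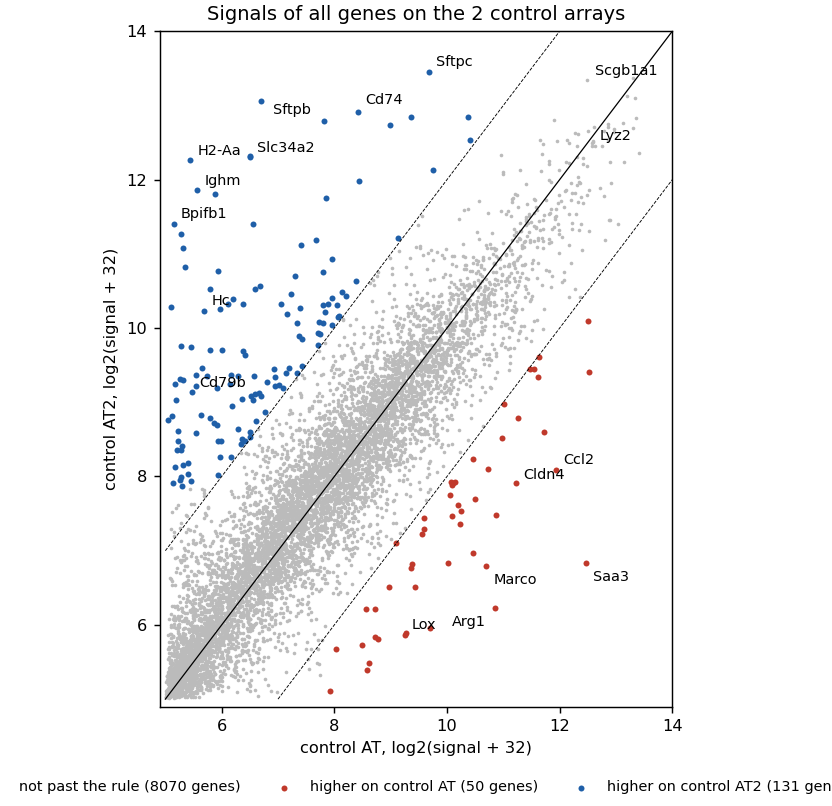
Signals of 8251 genes as log2(signal + 32), control AT on the horizontal and control AT2 on the vertical axis, 1 array each; the solid line marks equal signals and the dashed lines 4-fold. The 131 genes higher on control AT2 are in blue and the 50 higher on control AT in red, with Scgb1a1 and Lyz2 among the genes high on both.

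Repeat arrays of the tumour lines give a scale for these counts. Under the same rule, 16 pairs of arrays, each pair from 1 of 6 lines, held 0 to 88 far apart genes with a median of 27, or 0 to 1.07% of the genes. The 181 genes between the controls lay above every one of these pairs. The Spearman rank correlation of all probe sets between the controls was 0.913, under the 0.932 to 0.975 between repeat arrays of a line. Control AT correlated with the tumour arrays at 0.815 to 0.855 and control AT2 at 0.735 to 0.793, so control AT was the nearer of the 2 to the lines. These repeat arrays come from cultured lines, and what spread 2 preparations of fresh lung cells would have was not tested.

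**Figure D2:**
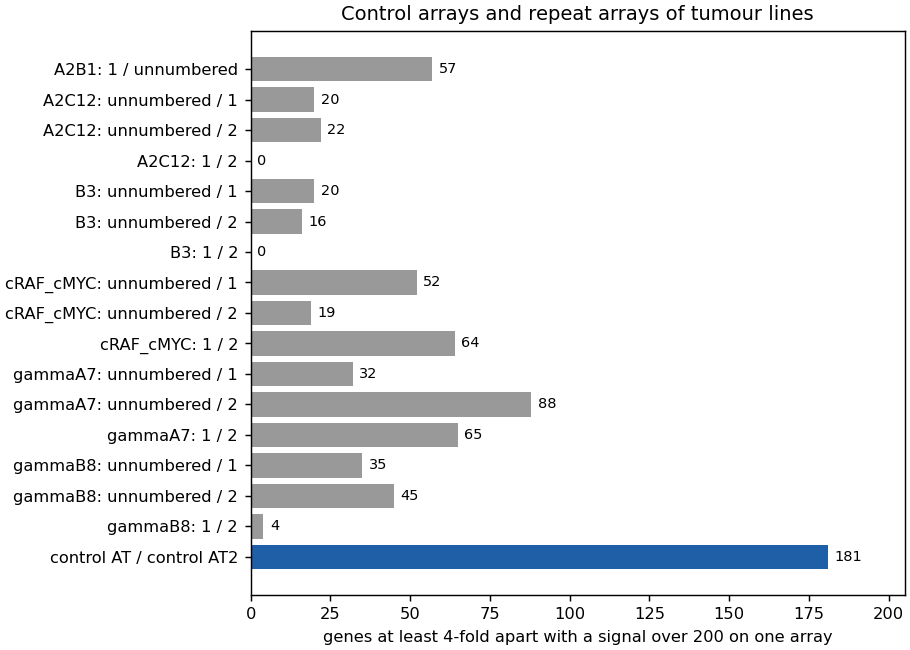
Number of genes at least 4-fold apart with a signal over 200, for 16 pairs of repeat arrays of 6 tumour lines (grey) and for the 2 control arrays (blue). The repeat pairs reach from 0 to 88 genes, and the controls have 181.

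Array quality measures of both controls lay outside the range of the lines. The median probe set signal was 93.8 on control AT and 107.7 on control AT2, against 53.2 to 75.5 on the tumour arrays. The 3' to 5' ratio of the beta-actin control probe sets, which grows as RNA breaks down, was 1.47 and 1.64, against 1.03 to 1.32 on tumour arrays, and that of Gapdh was 1.17 and 1.01, against 0.743 to 0.857. The part of RNA quality in the differences below was not tested.

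Markers of type II cells were on both arrays, and were far brighter on control AT2. Of 17 measured markers from a list of 30, 8 were higher on control AT2 by the rule and 0 on control AT, and 14 were higher on control AT2 by any amount. The median difference was 2.40, against 0.04 over all genes. Their summed signal was 8629 on control AT and 47651 on control AT2, against 1534 to 2566 on the tumour arrays. The markers Sftpa1, Abca3, Lamp3 and Nkx2-1 were not analysed here. In RNA from a whole preparation, fewer cells of a type and less RNA per cell cannot be told apart.

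Sftpc, which encodes surfactant protein C and is made by type II cells, had a signal of 787 on control AT and 11196 on control AT2, a difference of 3.78. Sftpb, the surfactant protein needed to spread the film, stood at 194 and 7067, a difference of 4.98. Slc34a2, the phosphate transporter of the type II cell surface, gave 58.5 and 5029, a difference of 5.81. These 3 genes were among the clearest markers of the cell type, and each was well over every tumour array on control AT2. Hc, which encodes complement component C5, was at 19.8 on control AT, next to the tumour range of 1.75 to 19.3, and at 1173 on control AT2. Napsa, an aspartic protease that processes surfactant protein B, was at 313 and 4031, and Chil1, a chitinase-like secreted protein, at 51.2 and 1245. Set against the label of type II cells, 5 of the 17 markers on control AT were under that array's median probe set signal of 93.8, Slc34a2, Hc and Chil1 among them, and 1 of 17 was so on control AT2.

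The enzymes of surfactant lipid lay closer together. In the list of surfactant lipid and fatty acid synthesis, 4 of 31 measured genes were higher on control AT2 by the rule, 0 on control AT, and the median was 0.43. Of those 4, Sftpc and Sftpb are the surfactant proteins already given. The others were Lpcat1, which remodels phosphatidylcholine for surfactant, at 136 on control AT and 1206 on control AT2, and Scd1, which desaturates fatty acids, at 1298 and 7323. The fatty acid synthase Fasn was at 367 and 913, a difference of 1.24, under 4-fold. Cholesterol enzymes lay close together on the 2 arrays, with Fdft1 at 352 and 363 and Hmgcs1 at 655 and 484.

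Not every type II marker took part. Ctsh, a lysosomal protease that also processes surfactant protein B, was at 1256 and 1816, and Cebpa, a transcription factor of type II and myeloid cells, at 1953 and 3036. The fatty acid carrier Fabp5 was higher on control AT, at 1242 against 484, and Sftpd was dim on both, at 30.1 and 70.4. Ctsh, Cebpa and Fabp5 are expressed by macrophages as well as by type II cells. Type I markers were on both arrays with no gene past the rule in 12 measured and a median of 0.38. The widest gap among them was Ager, a receptor of the type I cell membrane, at 364 and 1522, a difference of 1.97.

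**Figure D3:**
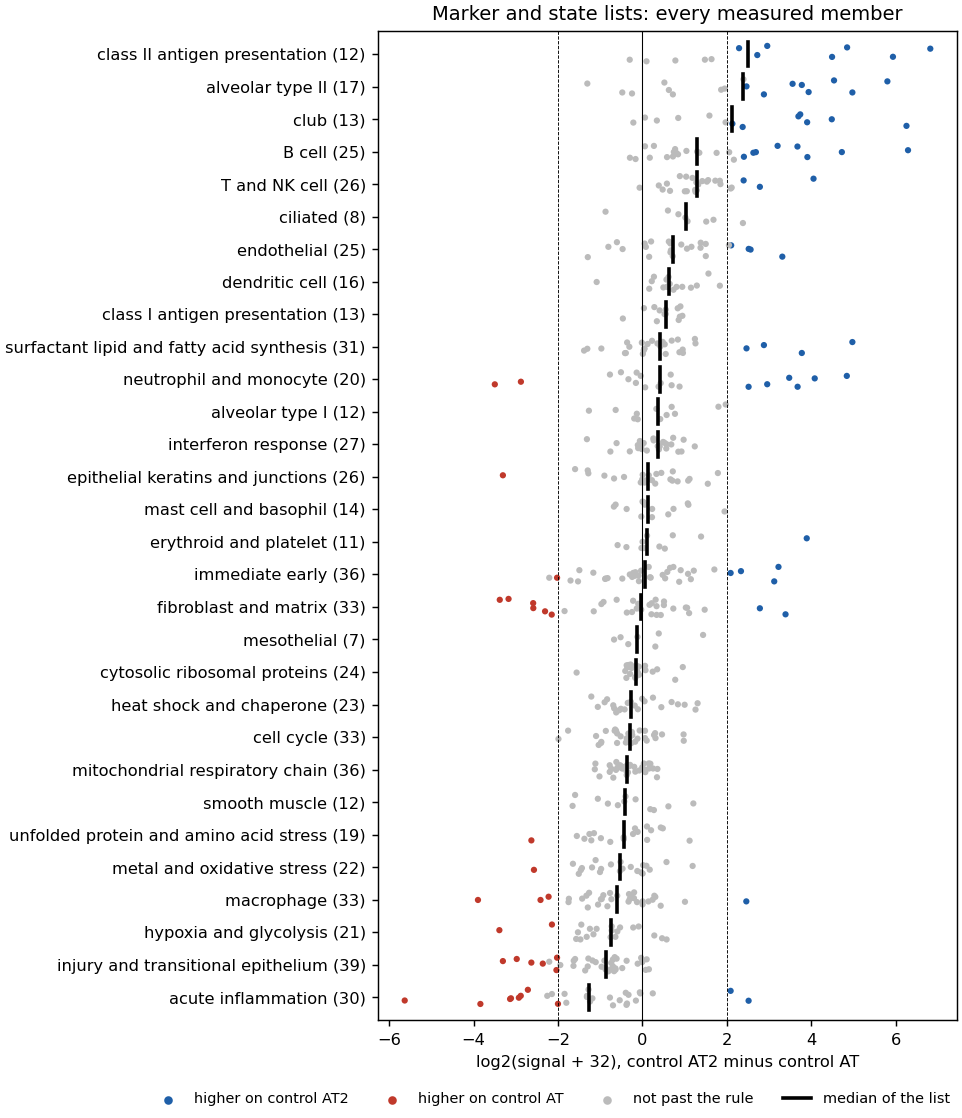
Difference in log2(signal + 32), control AT2 minus control AT, for every measured member of 30 gene lists, with the number measured in brackets; the black bars are list medians and the dashed lines 4-fold. Class II, type II and club cell lists have the highest medians (2.51, 2.40 and 2.13), and acute inflammation the lowest (-1.26).

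Club cell genes, which mark the secretory cells of small airways, were also brighter on control AT2. Of 13 measured, 7 were higher on control AT2 by the rule and 0 on control AT, with a median of 2.13 and a summed signal of 10893 on control AT and 35091 on control AT2. Bpifb1, an antimicrobial protein of airway secretions, was at 3.49 on control AT and 2684 on control AT2. Reg3g, an antibacterial lectin, was at 6.68 and 836. Both were within the tumour range on control AT. The detoxifying enzymes of club cells had a signal on each array, with Cyp2f2 at 479 and 6796 and Ces1d at 199 and 3422. Cckar, a cholecystokinin receptor, was at 32.1 and 799. The other 6 genes of the list did not pass the rule. Among them Gsto1, a glutathione transferase that the lines express too, was at 2549 and 2193, and Cbr2, a carbonyl reductase, at 100.0 and 135. Scgb1a1, the gene most used to name the cell type, which encodes the club cell secretory protein, was bright on both arrays at 5729 and 10348, a difference of 0.85, and reached only 44.9 on the brightest tumour array.

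Ciliated cell genes leaned the same way without passing the rule. Of 8 measured, 7 were higher on control AT2, and the median was 1.04. Foxj1, the transcription factor of motile cilia, was at 503 and 1496. Tekt2, a protein of the ciliary axoneme, was at 4.54 and 159, 4-fold apart but under a signal of 200. Neither the type II nor the airway genes can be assigned to a cell from a whole preparation, and how much the airway RNA adds to the differences of other lists was not tested.

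Class II antigen presentation had the highest median of the 30 lists. Of 12 measured genes, 7 were higher on control AT2 and 0 on control AT, and the median difference was 2.51. Class II molecules show peptides to CD4+ T cells, and in the lung they are made by B cells, dendritic cells, macrophages and type II cells. H2-Aa, which encodes the alpha chain of I-A, was at 11.5 on control AT and 4889 on control AT2. With a difference of 6.82, this was the widest gap among the 181 genes, and control AT was within the tumour range of 2.96 to 18.9. H2-Ab1, its beta chain, was at 61.8 and 2676. The I-E chains H2-Ea, which is in no list, and H2-Eb1 were at 6.82 and 2444, and at 26.7 and 3565. Cd74, the invariant chain that guides class II molecules through the cell, was at 311 and 7700.4. H2-DMb1, a chain of the peptide exchange factor, was at 189.8 and 1692. The classical chains, the invariant chain and the exchange factor thus lay on the same side. Ciita, the transcriptional coactivator of these genes, was dim on both arrays at 80.3 and 161, and Ctss, a protease that trims the invariant chain and is abundant in macrophages, was at 6865 and 5571.

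Class II promoters share the X and Y boxes, short elements before the start site to which the proteins that recruit Ciita bind. The promoters of H2-Aa and H2-Eb1, the classical class II genes with an entry in the table used here, are shown for these elements. They are taken from RefSeq on GRCm38.p6 and run from 250 bases before to 50 bases after the start, H2-Aa at chr17:34287774-34288073 on the minus strand and H2-Eb1 at chr17:34305617-34305916 on the plus strand. Capitals mark the Y box core CTGATTGG, searched on both strands.
H2-Aa: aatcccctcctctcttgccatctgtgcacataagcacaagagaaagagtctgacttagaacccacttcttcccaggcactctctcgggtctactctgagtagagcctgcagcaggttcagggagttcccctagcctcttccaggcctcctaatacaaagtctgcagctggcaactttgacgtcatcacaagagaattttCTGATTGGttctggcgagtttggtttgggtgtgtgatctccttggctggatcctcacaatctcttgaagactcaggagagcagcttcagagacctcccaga
H2-Eb1: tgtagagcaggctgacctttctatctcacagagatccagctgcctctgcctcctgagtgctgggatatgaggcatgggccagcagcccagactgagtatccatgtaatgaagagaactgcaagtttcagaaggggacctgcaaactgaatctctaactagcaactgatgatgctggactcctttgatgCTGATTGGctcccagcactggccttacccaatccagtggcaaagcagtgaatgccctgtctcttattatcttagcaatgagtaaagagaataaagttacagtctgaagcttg
The Y box core began 51 bases before the start in H2-Aa and 62 bases before it in H2-Eb1. It was found in 4 of 9 list genes with a promoter in the table (H2-Aa, H2-Eb1, H2-Eb2 and H2-Oa) and in 4.10% of all 32851 promoters. A list gene counted when any of its promoters matched. Only these exact letters were searched, so a gene without a match may still hold a variant of the box. An X box core, TAGCAAC and GATG with any 1 base between them, was found in 3 promoters of the table (0.00913%), that of H2-Eb1 among them. The H2-Aa promoter held no match to this core. H2-Eb2, which holds the Y box core too, was dim on both arrays at 2.24 and 4.64. A match is a description of the letters and says nothing of binding in these cells.

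Lymphocyte genes were dim on control AT and brighter on control AT2. Of 25 measured B cell markers, 8 were higher on control AT2 and 0 on control AT, with a median of 1.30 and a summed signal of 5002 and 16341. Cd24a, which epithelium and the tumour lines express too, made up 3311 and 5691 of these sums. Of 26 T and NK cell markers, 3 were higher on control AT2 and 0 on control AT, with a median of 1.28 and a summed signal of 826 and 3866. Under the median signal of the array lay 17 of the 25 and 23 of the 26 on control AT, and 5 and 14 on control AT2. Of 21 immunoglobulin genes with a signal over 200 on a control, 17 were among the 131 higher on control AT2. Over all measured genes the share was 1.59%. Those 17 were under 200 on control AT, so they met the signal limit through control AT2 alone. Many immunoglobulin probe sets share sequence, so the variable gene each one names is uncertain.

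Among B cell genes, Cd79b, a signalling chain of the B cell receptor, was at 12.2 on control AT and 532 on control AT2. Its partner Cd79a was at 39.7 and 629. Ltb, a lymphotoxin of lymphocytes, was at 23.5 and 802. On control AT the first of these lay within the tumour range, up to 24.8, and so did Ighm, the heavy chain of IgM, at 15.4. On control AT2 Ighm stood at 3687. Igha, the heavy chain of IgA, was at 58.3 and 5067, and Jchain, which joins IgM and IgA into polymers and is made by plasma cells, at 23.6 and 1439. The kappa variable probe sets named Igkv6-23, Igkv9-120 and Igkv6-14 were at 72.0, 7.78 and 2.48 on control AT and at 8542, 2123 and 1218 on control AT2. Also past the rule were Ms4a1 at 90.9 and 619, Spib at 10.3 and 230, and Fcer2a at 6.30 and 215. Of the 25 measured markers, 14 were at least 2-fold higher on control AT2. Some others were under 2-fold apart, such as Ighd, the heavy chain of IgD, at 171 and 272, and the receptor Cd22 at 116 and 226. Btk and Cd37 of the same list, which myeloid cells express too, lay close, at 369.7 and 295 and at 362 and 379.7.

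Among T and NK cell genes, the chemokine Ccl5 was at 6.35 and 605. Zap70, a kinase of the T cell receptor, was at 71.4 and 514, and Thy1, on T cells and some fibroblasts, at 10.1 and 258. The T cell receptor chains Cd3d, Cd3e and Cd3g were higher on control AT2 but dim there, at 60.8, 93.8 and 67.3. Dendritic cell genes were higher on control AT2 in 15 of 16 with 0 past the rule, a median of 0.63, and the widest gap at Ccr7, a homing receptor, with 11.5 and 123. The B cell, dendritic cell and type II lists all stood on the same side as the class II genes, and the part of each in the class II difference was not tested.

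Macrophage genes were bright on both arrays and leaned to control AT. Of 33 measured, 3 were higher on control AT by the rule and 1 on control AT2, 24 were higher on control AT by any amount, and the median was -0.60. Their summed signal was 75498 on control AT and 40382 on control AT2, against 5035 to 8931 on the tumour arrays. Of the 33, 31 were over every tumour array on control AT and 30 on control AT2. Marco, a scavenger receptor of alveolar macrophages, was at 1626 on control AT and 79.4 on control AT2. Ctsk, a lysosomal protease, was at 5772 and 1057, and Adgre1, the F4/80 antigen, at 1099.9 and 211. The 1 gene on the other side was Fabp1, a fatty acid carrier known from liver and gut and listed here with alveolar macrophages, at 62.5 and 489. All other markers of the list were under 4-fold apart. The lectin Chil3 was at 10852 and 5224, the mannose receptor Mrc1 at 2351 and 1191, and the integrin Itgax at 996 and 1001. Complement C1qa was higher on control AT2, at 419 and 875.

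Further genes known from macrophages and other myeloid cells stood among the 50 higher on control AT, and their cell of origin was not tested. Arg1, which splits arginine and is induced in alternatively activated macrophages, was at 1817 and 42.7, against at most 17.3 on the tumour arrays. Pla2g7, a lipoprotein-associated phospholipase, was at 1839.5 and 146, with a median of 8.15 but up to 622 on the tumour arrays. Clec4d, a lectin receptor of myeloid cells, was at 1376 and 92.8. These 3 were among the 15 widest gaps to that side, and control AT2 held a signal under 200 for each. Singled out after their values were seen, the metalloelastase Mmp12 was at 2942 and 669.9, the acid phosphatase Acp5 at 1985 and 336, and the metal transporter Slc11a1 at 1418 and 176.

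Neutrophil and monocyte genes were split. Of 20 measured, 6 were higher on control AT2 and 2 on control AT, with a median of 0.41. Ltf, lactoferrin of neutrophil granules and airway glands, was at 29.0 and 1721, and S100a9, a calcium-binding protein of neutrophils, at 3.81 and 575. Its partner S100a8 was at 575 and 1085, under 4-fold apart. Ccr2, the chemokine receptor of inflammatory monocytes, was at 14.6 and 564. Hp, the haemoglobin scavenger haptoglobin, was at 625 and 7291. Mpo, a granule enzyme made by immature neutrophils, was dim on both, at 23.7 and 26.3. The members on the side of control AT were Clec4d, given above, and the collagenase Mmp8, at 388 and 25.2.

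Vascular genes leaned to control AT2. Of 25 endothelial markers, 4 were higher there and 0 on control AT, 21 were higher there by any amount, and the median was 0.72. Aqp1, a water channel of capillaries, was at 51.3 and 797. Ramp2, a receptor partner for adrenomedullin, was at 59.9 and 512, and Cldn5, a junction protein of endothelium, at 104 and 551. Car4, a carbonic anhydrase of lung capillaries, was at 64.9 and 523, while a dimmer probe set of it gave 107.0 and 52.4. Of the 25, 11 were at least 2-fold higher on control AT2 and 1 on control AT. The general markers Cdh5, the cadherin of endothelial junctions, and Vwf, von Willebrand factor, were at 155 and 455 and at 277 and 659.8, while the adhesion molecule Pecam1 was at 115 and 138. Haemoglobin Hba-a1 of red cells was at 70.0 and 1486, the 1 of 11 erythroid and platelet genes past the rule. That list had a median of 0.11 (-0.04 with each array centred). The haemoglobin Hbb-b2, in no list, was past the rule too, at 14.8 and 351. Mast cell and basophil genes had 0 of 14 past the rule and a median of 0.14 (-0.01 with each array centred), with the widest gap at Hdc, which makes histamine, at 477 and 1932.

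**Figure D4:**
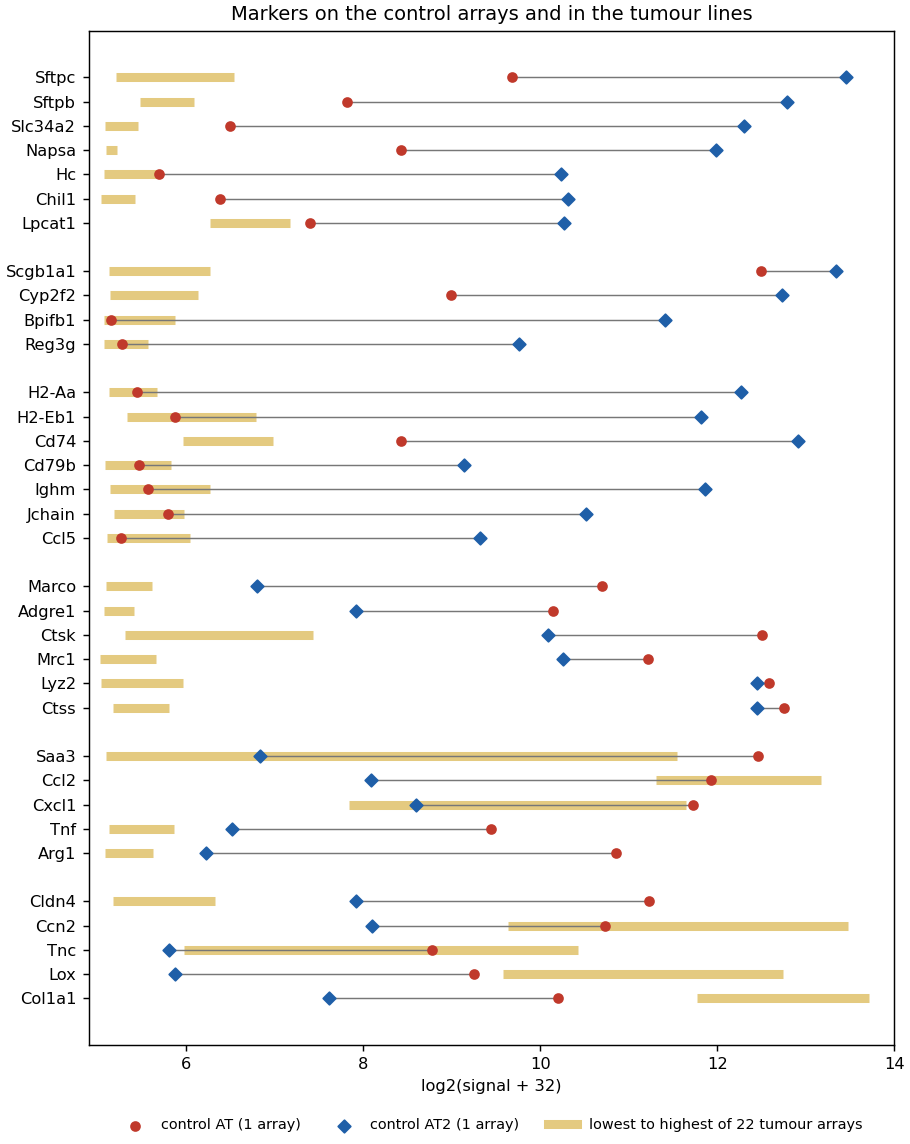
log2(signal + 32) of marker genes on control AT (red circles) and control AT2 (blue diamonds), 1 array each, with the lowest to highest of 22 tumour arrays as bars. Type II, class II and lymphocyte genes lie to the right on control AT2, macrophage and inflammation genes on control AT, and Scgb1a1, Lyz2 and Ctss are high on both.

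Acute inflammation was the list with the lowest median, -1.26. Of 30 measured genes, 8 were higher on control AT by the rule and 2 on control AT2, and 27 were higher on control AT by any amount. Saa3, an acute phase protein made by macrophages and injured epithelium, was at 5609 on control AT and 81.8 on control AT2. Its difference of -5.63 was the widest on that side. Ccl2, the chemokine that draws monocytes, was at 3863 and 240.3, and Cxcl1, which draws neutrophils, at 3361 and 354. Ccl9, a chemokine of macrophages, was at 5844 and 647. The cytokine Tnf was at 663 and 59.4, and was at most 26.0 on the tumour arrays. The signals of Saa3, Ccl2 and Cxcl1 are no mark of control AT alone, since the tumour lines reached 2966, 9193 and 3186.

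The inflammation list did not stand wholly on 1 side. The cytokine Il1b was higher on control AT2, at 90.3 and 668, while its relative Il1a was higher on control AT, at 1186 and 154. Socs3, which dampens cytokine signals, was at 77.6 and 435, also higher on control AT2. Cxcl2 was at 1084 and 459, under 4-fold. The signalling inhibitor Nfkbia, listed with the immediate early genes and not with inflammation, was at 2659.7 and 903, also under 4-fold. Interferon response genes, with 0 of 27 past the rule, had a median of 0.36, and the widest gap was Cxcl10, at 58.2 and 4.28.

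Many genes of this kind are targets of NF-kappaB, which binds kappaB sites. The promoter of Cxcl1 is shown because it holds a pair of such matches in a short stretch, and it was chosen after the values were seen. It lies at chr5:90890995-90891294 on the plus strand of GRCm38.p6, from RefSeq, and capitals mark the kappaB motif on either strand, GGG and TTTCC with any 2 bases between them, which began 89 and 71 bases before the start.
Cxcl1: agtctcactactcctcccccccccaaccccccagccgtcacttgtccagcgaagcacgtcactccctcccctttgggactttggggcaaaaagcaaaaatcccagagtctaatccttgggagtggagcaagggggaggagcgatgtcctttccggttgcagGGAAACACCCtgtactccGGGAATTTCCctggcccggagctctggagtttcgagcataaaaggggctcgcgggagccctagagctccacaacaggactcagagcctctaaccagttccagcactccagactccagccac
Of 22 acute inflammation genes with a promoter in the table, 7 held a match (Ccl9, Csf1, Cxcl1, Cxcl2, Il1rn, Il6 and Tnfaip3), as did 1.63% of all promoters. Cxcl2, under 4-fold apart, held a pair of matches too, which began 97 and 78 bases before its start. Saa3, Tnf and Il1b held none in this window. Nothing is drawn from these letters about the factor itself.

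Immediate early genes, which respond within minutes to stress and to tissue dissociation, did not lean to 1 side as a group. Of 36 measured, 4 were higher on control AT2 and 1 on control AT, 18 lay on each side, and the median was 0.06, or -0.09 with each array centred on its median. Fos, the best known of them, was at 3264 and 5158, against a tumour median of 111, and Egr1 was at 1058 and 1035. Nr4a1, a nuclear receptor of the early response, was at 118 and 1372. Fosb was at 251 and 1396, and Klf2, a factor of quiescent endothelium and lymphocytes, at 7.18 and 309.6. The gene past the rule on the side of control AT was Ier3, a survival factor, at 3143 and 750.0. Fos and Egr1 were thus less than 2-fold apart, and the wide gaps were in other members.

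Heat shock genes had 0 of 23 past the rule, against 2.19% of all measured genes, and a median of -0.27. Hspa1a, the inducible Hsp70, was at 679 and 814, and the widest gap was its partner Dnajb1, at 188 and 513. In the unfolded protein and amino acid stress list, 1 of 19 was higher on control AT, with a median of -0.44. That gene was Psat1 of serine synthesis, at 1061 and 145. Metal and oxidative stress genes had 1 of 22 higher on control AT and a median of -0.52. That gene was Srxn1, which repairs oxidised peroxiredoxins, at 637 and 80.7. The metallothionein Mt2 was at 8420.1 and 2669.6, and haem oxygenase Hmox1 at 4211 and 1539.9, both under 4-fold. In the 3 stress lists outside the early genes, 15 of 23, 13 of 19 and 16 of 22 genes were higher on control AT by any amount. Of all measured genes, 54.6% were higher on control AT2 by any amount. At least 2-fold higher on control AT were 2, 6 and 8 genes, and on control AT2 3, 1 and 1. The shares over all measured genes were 5.02% and 6.97%.

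Hypoxia and glycolysis genes leaned further to control AT. Of 21 measured, 2 were higher there by the rule and 0 on control AT2, 18 were higher there by any amount, and the median was -0.75. Adm, the hypoxia-induced peptide adrenomedullin, was at 588 and 27.2. Aldoc, an aldolase of glycolysis, was at 737 and 142. Hif1a, the oxygen-sensing factor, was at 3347 and 1189, and pyruvate kinase Pkm at 4672 and 1853, both under 4-fold. Genes of the respiratory chain had 0 of 36 past the rule and a median of -0.37, with the widest gap at Atp5k, at 114 and 35.0. Cell cycle genes had 0 of 33 past the rule and a median of -0.30. Ccnd2, a cyclin of the early cell cycle, had the widest gap among them, at 152 and 14.4. The proliferation marker Mki67 was at 123 and 116, against a tumour median of 792.

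Genes listed for injured or cultured epithelium lay mostly on the side of control AT. Of 39 measured, 6 were higher there by the rule and 0 on control AT2, 35 were higher there by any amount, and the median was -0.87. Cldn4, a tight junction protein that rises when alveolar epithelium is injured, was at 2359.9 and 210.0, against at most 48.3 on the tumour arrays. Tnc, a matrix protein of wounds, was at 408 and 23.9, and Ccn2, a target of YAP and TGF-beta signalling, at 1669.5 and 243. Sprr1a, a cornified envelope protein, was at 229.6 and 19.0, and the tubulin Tubb6 at 2029 and 470.4. The other list gene past the rule was Anxa3, at 2805 and 667. Ankrd1, another target of YAP but in no list, was at 350.4 and 10.2. The tumour lines held Ccn2, Tubb6, Anxa3 and Ankrd1 too, with medians of 2835, 4867, 3940 and 1519. Keratins of simple epithelium were higher on control AT by under 4-fold, with Krt8 at 3646 and 1467 and Krt18 at 2048 and 824. Of the 39 genes, 10 are in another list too. Which cells the genes of this list came from, epithelial or other, cannot be told in RNA from a whole preparation.

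General epithelial genes did not follow the keratins. In the list of keratins and junctions, Cldn4 was the 1 gene of 26 past the rule, and the median was 0.14 (-0.01 with each array centred), with 17 genes higher on control AT2. Cldn3 was at 705 and 2127, Cldn7 at 192 and 741, and Epcam, an adhesion protein of epithelium, at 109 and 275. E-cadherin, Cdh1, was at 268 and 339. Basal cell keratins Krt5 and Krt14 were near the floor on both, at 6.51 and 6.41 and at 6.67 and 8.08. On each of the controls, 18 of the 26 were over every tumour array.

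Fibroblast and matrix genes went both ways. Of 33 measured, 6 were higher on control AT and 2 on control AT2, with a median of -0.03. Lox, which cross-links collagen, was at 577 and 26.5, Col5a2 at 999 and 82.5, and Col1a1 at 1147 and 164. All 3 were brighter in the tumour lines, whose medians were 4082, 4980.2 and 5715. The stromal protease Mmp3, in no list, was at 802 and 30.1. On the other side stood Inmt, a methyltransferase abundant in lung stroma, at 127 and 1634, and Thy1. Dcn, a proteoglycan of fibroblasts, lay close at 1207 and 1406, and so did Col1a2, at 701 and 894, although it pairs with Col1a1. A dimmer probe set of Col1a1 gave 785 and 325, the same direction by less than 4-fold. Smooth muscle and mesothelial genes had 0 of 12 and 0 of 7 past the rule, with medians of -0.41 and -0.12 and the widest gaps at Tagln (767 and 222) and Upk3b (282 and 818).

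The genes on the 2 sides differed in how the tumour lines hold them. Of the 50 higher on control AT, 23 (46%) had a tumour median over 200. Of the 131 higher on control AT2, 9 (6.87%) had a tumour median over 200. Among the other 3823 genes with a signal over 200 on a control, 2618 (68.5%) had one. Shared genes on the side of control AT included Ccl2, Lox, Col1a1, Ccn2, Ankrd1 and Psat1, with tumour medians of 4312, 4082, 5715, 2835, 1519 and 5176. Genes dim in the lines included Marco, Arg1, Tnf and Cldn4, with medians of 6.00, 4.53, 5.06 and 8.56. Saa3 varied widely among the lines, from 2.08 to 2966 over the tumour arrays.

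**Figure D5:**
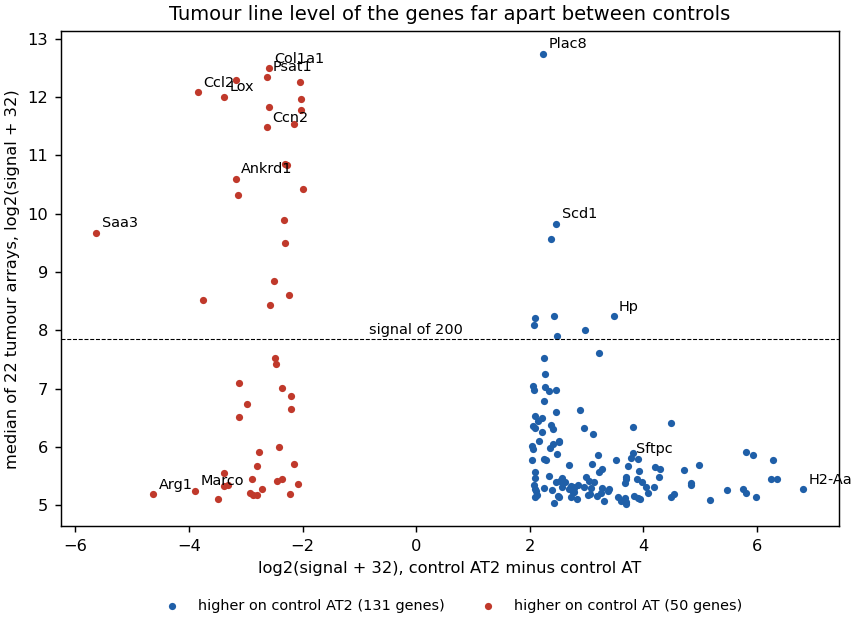
Median log2(signal + 32) of 22 tumour arrays against the difference between the controls for the 181 genes far apart; the dashed line marks a signal of 200. Of the red genes, higher on control AT, 23 of 50 lie above the line, and of the blue genes, higher on control AT2, 9 of 131.

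Both preparations also held genes in common that were dimmer on every tumour array. Of 501 genes with a signal over 1000 on both controls, 458 were less than 2-fold apart, and 15 (2.99%) were in addition at least 8-fold over every tumour array on the dimmer control. Most of the 15 are known from macrophages and other leukocytes. Their highest tumour signals reached 144 for Abcg1, so not all were near the floor in the lines. Lyz2, lysozyme of macrophages, neutrophils and type II cells, was at 6099 and 5582, against at most 30.4 on the tumour arrays. Ctss was at 6865 and 5571. Mpeg1, the pore-forming perforin-2 of macrophages, was at 6721 and 3771, and the lysosomal protein Laptm5 of blood cells at 5202 and 3924. Lcp1, the actin bundler of leukocytes, was at 3631 and 3069, and the tetraspanin Cd53 at 2737 and 1389. Selplg, the selectin ligand of leukocytes, was at 1327 and 1709, Cytip, which regulates their adhesion, at 2382 and 3505, and Mrc1 was the last of this kind.

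Others of the 15, Apoe and Abcg1, act on lipids. Apoe, an apolipoprotein of macrophages, was at 3039.9 and 2586, and Abcg1, which exports cholesterol from macrophages and type II cells, at 2536 and 2122. Smpdl3a, a phosphodiesterase, was at 2298 and 1223. The last were Scgb1a1 and Cebpa, given above, and Plet1, a surface protein, at 3872 and 3088. No gene restricted to type II cells met this rule, since Sftpc, Sftpb, Slc34a2 and Napsa were under 1000 on control AT. Ribosomal protein genes had 0 of 24 past the rule and a median of -0.16, with the widest gap at Rpl13a, at 782 and 244, and class I antigen presentation had 0 of 13 and a median of 0.55, with the widest gap at H2-Q10, at 91.9 and 207.

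Of the 181 genes, 101 were in no list, 81 of them higher on control AT2 and 20 on control AT. Pon1, a lactonase carried on lipoproteins, had the widest gap among those that encode no antibody or class II chain, at 8.96 and 1785. The genes that follow were singled out after their values were seen. The transcription factors Sox2, of airway epithelium, and Elf5 and Irx3 were higher on control AT2, at 192 and 1239, 17.7 and 422, and 180.0 and 1056. Epithelial factors of the lists did not pass the rule, among them Foxa2 at 145 and 613 and Elf3 at 442 and 744. The growth factor receptor Fgfr2, needed to form and keep alveoli, was at 218 and 1928. The secreted proteins Tff2, Wfdc2 and Chia1 were at 4.66 and 490.5, 1327 and 5879, and 38.8 and 577, while Slpi and Lcn2, which airways also secrete, lay level at 1931 and 1755 and at 961 and 860.5. Txnip, an inhibitor of thioredoxin that follows glucose, was at 531 and 2348. Plac8 stood out by its tumour median of 6804, against 263 on control AT and 1355 on control AT2. On the side of control AT, the lysosomal protease Ctsl was at 3119 and 616 and the glucocorticoid-induced Fkbp5 at 1387 and 269.

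A pair of sex-linked genes lay on opposite sides. Xist, the RNA that silences an X chromosome in female cells, was at 359 on control AT and 12.9 on control AT2. The Y-linked Eif2s3y was at 3.19 and 209. Other Y-linked genes were dim on both arrays, with Uty at 3.36 and 25.6 and Kdm5d at 3.83 and 5.18. The labels give no sex, and its part in the differences above was not tested.

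Genes near the 4-fold limit show how much the count rests on it. Among the last genes inside were Tiam1 at 2.04 and Matn4 at 2.05 on the side of control AT2, and Anxa3 at -2.02 and Ier3 at -2.02 on that of control AT. Just outside lay Cd7 at 1.99 and Clic3 at 1.99, and Plk2 at -1.97 and Pdk4 at -1.95. Within 0.1 of the limit there were 15 genes outside on the first side and 5 on the other. Of the 181 genes, 20 had another probe set with a signal over 200, and for 17 of these another probe set was at least 2-fold apart the same way, with 0 of opposite sign. Srxn1, given above, was not among the 17.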

How the data were processed

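The values are 1 signal per probe set and array, deposited by the authors as linear intensity and made with GCOS, the Affymetrix software, per the submitters' processing notes. Probe level data and detection calls were not used here. All 24 arrays had a mean of 248 to 249 after 2% was trimmed from each end, so each had been scaled to 1 level before deposit. Of 12488 probe sets, 66 control sets were left out. Of the rest, 10833 had 1 gene symbol, 396 several and 1193 none in the platform annotation, and 10817 symbols were updated to RefSeq of GRCm38.p6. A gene was its brightest probe set on the 2 controls. Files were read and compared with Python 3.11.15, pandas 2.3.3 and numpy 2.4.6, and the counting was tested on simulated data.

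The 2 arrays were compared on log2(signal + 32), with a difference of at least 2 and a signal over 200 on 1 array. Named are 6 markers given with the comparison, the 15 widest gaps each way, up to 5 members per list past the rule (or the widest where none passed), the genes high on both (signal over 1000, under 2-fold apart, 8-fold over every tumour array), and others, chosen after their values were seen, to show list members the rule leaves out. The rule also took the 10 genes with the highest lower signal, which are not reported because probe sets share no scale. The comparison and the lists were chosen with earlier results of these data known. No p-value was computed, since each control is 1 array, which is also what limits the precision. Alternatives were other offsets, scalings, limits and probe set rules.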

Additional observations from a re-analysis of the deposited data

How the results depend on the processing

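The 50 genes higher on control AT became 30 with an offset of 100, 86 after quantile normalization, 15 at 8-fold and 316 at 2-fold. The 131 higher on control AT2 became 80 with an offset of 100, 62 at 8-fold and 384 at 2-fold. Under the other settings (an offset of 1, a floor of 32, centred arrays, averaged probe sets and signal limits of 100 or 500) the counts ranged from 40 to 67 and from 93 to 160. Added after the data were seen, leaving out immunoglobulin genes gave 50 and 114, and leaving out probe sets with a letter suffix, which can detect several transcripts, gave 46 and 104. The 15 genes high on both became 28 with a limit of 500 on both arrays, stayed between 10 and 22 under the others, and were 15 to 16 when each tumour array was left out. The median of 27 far apart genes between repeat arrays became 13 with an offset of 100. All 73 named genes past the rule kept their sign under 6 settings, and 60 to 73 stayed 4-fold apart. Of 180 list medians recomputed, 54 moved by more than the spread of repeat arrays, and the sign turned for 4 lists, each with arrays centred. No paired analysis was possible because each control is 1 array and no replicate numbers tie the controls to other samples. Dim signals limit the folds of genes near the floor, and neither the spread between preparations nor that between animals can be measured with 1 array each.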
